A study of Mus musculus with 18 samples.

Results

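The 3 genes of the retinoblastoma (pocket) proteins and 7 genes of the E2F transcription factors were followed through differentiation in wildtype (WT) and LAP2α knockout (KO) mouse myoblasts. The members were chosen by name: *Rb1*, *Rbl1*, *Rbl2*, *E2f1*, *E2f2*, *E2f3*, *E2f4*, *E2f5*, *E2f7* and *E2f8*. They are 10 of the 19153 genes listed in each library, and all 10 were among the 17672 genes with enough counts to be tested. RNA was sequenced from an immortalized myoblast line of a p53 knockout mouse, so p53 was absent from every group, controls included. KO cells had been edited with Cas9 and a guide against the *Tmpo* region that encodes LAP2α, a nucleoplasmic protein known to bind lamin A/C and pRb. WT cells had received the Cas9 vector without a guide, and both were pools sorted in bulk rather than single clones. Each genotype was sampled while proliferating in 20% fetal calf serum (Prol), at confluence (D0) and after 48 hours in 5% serum (day 2, D2), with 3 libraries in each of the 6 groups.

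The pocket proteins pRb (*Rb1*), p107 (*Rbl1*) and p130 (*Rbl2*) bind E2F factors and keep E2F target genes silent until cyclin-dependent kinases phosphorylate them. E2F1, E2F2 and E2F3 are the classical activators, E2F4 and E2F5 act mainly as repressors together with p107 and p130, and E2F7 and E2F8 are atypical repressors that bind DNA without a dimer partner or a pocket protein. In skeletal muscle, pRb is known for its part in the permanent exit of myoblasts from the cell cycle, and p130 for repressing cell cycle genes in non-dividing cells.

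Several of these genes are themselves known E2F targets, and windows around start sites were therefore searched for E2F sites. The RefSeq start-site windows (GRCm38.p6) reached from 250 bases before to 50 bases after the start. They were searched for 7 of the 10 members, and those of *Rb1*, *E2f4* and *E2f5* were not analysed here. The *E2f1* window ends at base 154569676, inside the gene, whose annotated start on the minus strand is at base 154569892. Bases before that start were not searched, so the lack of an E2F match there says nothing of the *E2f1* promoter. The letters searched on both strands were TTTCCCGC, TTTGGCGC, TTTCGCGC and TTTGCCGC, and 2.26% of the 32851 mouse windows held at least 1 of them. Matches were found for *Rbl1*, *E2f3*, *E2f7* and *E2f2*, whose 250 bases before the start are shown 5′ to 3′ because 3 of these genes fell between Prol and D2 in at least 1 genotype and 1 rose. Capitals mark the E2F letters, which end 11 bases before the start in *Rbl1*, 4 bases before it in *E2f3* and 191 bases before it in *E2f7*. The match of *E2f2* begins 39 bases after the start, outside the run shown, which therefore holds no capitals.
Rbl1 (chr2:157204535-157204784, minus strand): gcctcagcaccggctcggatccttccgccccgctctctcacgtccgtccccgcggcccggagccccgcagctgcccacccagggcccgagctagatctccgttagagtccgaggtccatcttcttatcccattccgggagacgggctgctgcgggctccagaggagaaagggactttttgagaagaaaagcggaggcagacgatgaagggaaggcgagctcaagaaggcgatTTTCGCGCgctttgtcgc
E2f3 (chr13:29986064-29986313, minus strand): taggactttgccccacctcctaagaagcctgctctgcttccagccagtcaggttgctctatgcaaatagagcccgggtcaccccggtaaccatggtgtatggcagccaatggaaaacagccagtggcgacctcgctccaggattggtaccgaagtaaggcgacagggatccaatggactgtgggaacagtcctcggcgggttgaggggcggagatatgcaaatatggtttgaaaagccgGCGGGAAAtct
E2f7 (chr10:110745189-110745438, plus strand): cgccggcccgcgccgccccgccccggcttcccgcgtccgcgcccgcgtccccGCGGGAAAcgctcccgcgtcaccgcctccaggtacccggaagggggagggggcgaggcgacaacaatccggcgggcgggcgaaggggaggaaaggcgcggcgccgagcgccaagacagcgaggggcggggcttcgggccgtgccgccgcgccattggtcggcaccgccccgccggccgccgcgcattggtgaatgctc
E2f2 (chr4:136172024-136172273, plus strand): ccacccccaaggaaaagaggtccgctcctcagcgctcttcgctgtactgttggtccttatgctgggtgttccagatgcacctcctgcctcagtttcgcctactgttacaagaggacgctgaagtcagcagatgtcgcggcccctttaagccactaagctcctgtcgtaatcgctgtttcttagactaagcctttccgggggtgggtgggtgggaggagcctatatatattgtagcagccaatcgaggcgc
The cell cycle homology letters TTTGAA were found in a window of *Rbl2*, *E2f2*, *E2f3* and *E2f8*, and in 17.9% of all windows. These matches are letters in a window and say nothing of binding in these cells.

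The values are CPM, counts of a gene relative to the size of its library as scaled by the authors, and library totals ran from 26437823 to 41619016 expected counts. The summed level of 6 myocyte markers (*Myog*, *Myh3*, *Ckm*, *Acta1*, *Tnnt3* and *Mymk*) lay between 2.29 and 28.4 CPM in the 12 libraries before D2, at 2460 to 5050 CPM in WT D2 and at 1470 to 1870 CPM in KO D2. The 5 listed of 6 myoblast markers summed to 39.4 to 68.6 CPM before D2, 521 to 880 CPM in WT D2 and 377 to 416 CPM in KO D2, and *Pax7* was not listed. Among them, *Myod1* was at 0.736 to 5.88 CPM before D2 and at 47.7 to 99.7 CPM at D2, whereas *Myf5* was at 20.5 to 37.1 CPM before D2 and at 11.6 to 29.6 CPM at D2. The summed level of the 4 listed of 5 fibroblast markers was 13.2 to 77.5 CPM before D2, 121 to 200 CPM in WT D2 and 130 to 306 CPM in KO D2, and those of adipocytes, endothelial cells and macrophages stayed at or below 5.92 CPM. The part of any other cell type in the results was not tested. *Tmpo* as a whole gene was at 275 to 315 CPM in WT Prol and 228 to 260 CPM in KO Prol, with log2 differences between KO and WT of -0.28 to -0.21 in the 3 states (adjusted p = 1 each, limma). Gene-level values sum all *Tmpo* isoforms and do not check the loss of LAP2α.

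In proliferating WT cells the levels per kb of exon sequence spanned from 34.7 ± 5.16 CPM per kb for *E2f4* to 0.971 ± 0.178 CPM per kb for *E2f2* (SD, n = 3). Next to *E2f4* stood *E2f5* at 19.6 CPM per kb, *E2f1* at 15.2, *E2f3* at 11.5 and *Rbl1* at 10.6, followed by *E2f8* at 6.94, *E2f7* at 6.22, *Rbl2* at 2.92 and *Rb1* at 1.59. The libraries of *E2f4*, *Rbl2*, *Rb1* and *E2f2* did not overlap those of their neighbours in this order, nor did those of *Rbl1* and *E2f8*, whereas *E2f5* and *E2f1*, *E2f1* and *E2f3*, *E2f3* and *Rbl1*, and *E2f8* and *E2f7* overlapped. At D2 in WT, *E2f4* (25.6 CPM per kb) and *E2f5* (10.3) still led, *Rb1* stood in the third place at 7.29 ± 3.56 CPM per kb, and *E2f7* was last at 1.03. All neighbours from *E2f5* down to *Rbl1* overlapped there. In KO D2 the order was *E2f4*, *E2f5*, *E2f3*, *E2f1*, *Rbl2*, *Rb1*, *E2f2*, *Rbl1*, *E2f8* and *E2f7*, and neighbours from *E2f5* to *E2f8* overlapped.

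**Figure D1:**
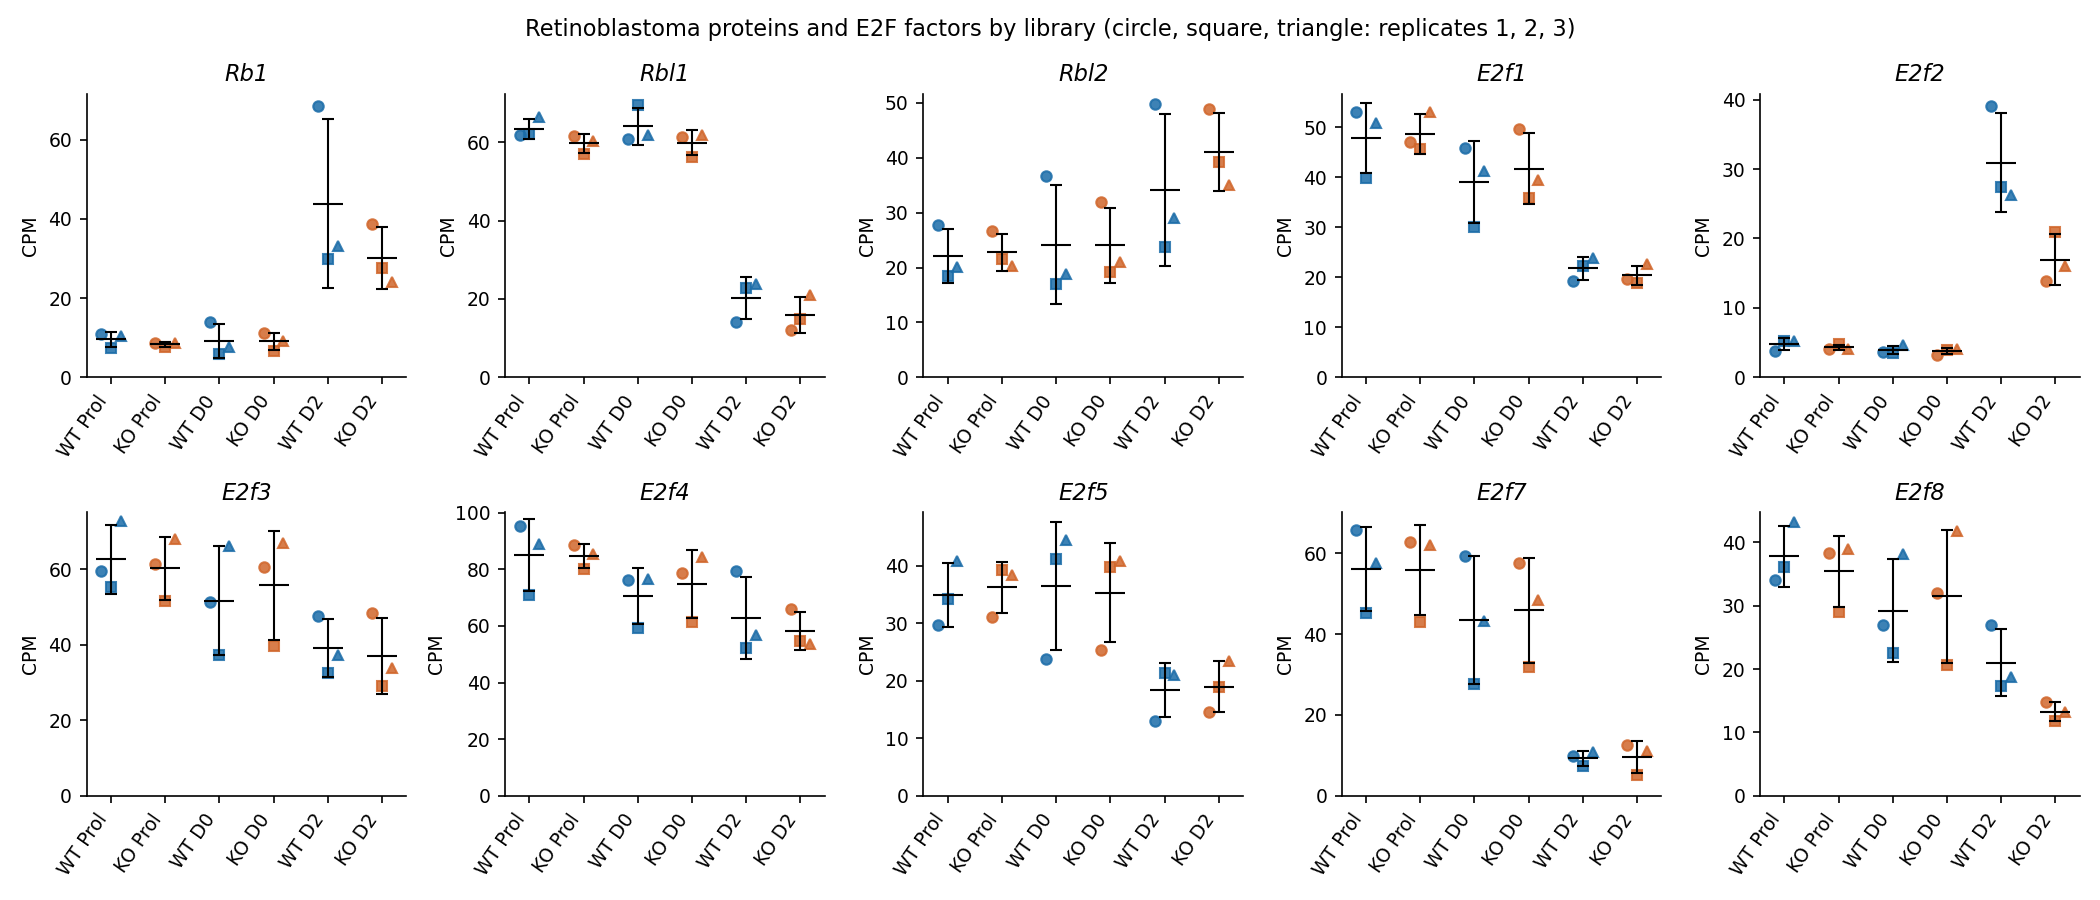
CPM of each of the 10 genes in all 18 libraries, 1 panel a gene, with WT in blue and KO in orange. Bars are the mean and SD of 3 libraries, and each axis starts at 0. *Rb1* and *E2f2* stand higher at D2 than at Prol and D0 in both genotypes, while *Rbl1*, *E2f1* and *E2f7* stand lower.

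Which members differ between proliferating and differentiating cultures was asked by comparing D2 with Prol in each genotype. Exit from the cell cycle was not measured. D2 cultures had also reached confluence and spent 48 hours in 5% serum, so density, serum, time and differentiation cannot be told apart. In WT, *Rb1* and *E2f2* rose and *Rbl1*, *E2f1*, *E2f5*, *E2f7* and *E2f8* fell, so that 7 of 10 members passed an adjusted p under 0.05 (limma on log2 CPM, Benjamini-Hochberg over all genes), against 30.7% of all genes. The 2 that rose stand beside 16.6% of all genes higher, and the 5 that fell beside 14.1% lower. In KO, 9 of 10 members passed against 32.3% of all genes, 2 of them higher (17.1% of all genes) and 7 lower (15.2%). The libraries of D2 and Prol did not overlap for 8 members in WT (43.5% of all genes) and for 10 in KO (47.7%). By the criteria stated in the study's methods (unadjusted p under 0.05, an absolute log2 change over 1.5 and at least 10 CPM in 1 library), *Rb1*, *Rbl1*, *E2f2* and *E2f7* were called in both genotypes, 4 of 10 members beside 7.68% of all genes in WT and 8.18% in KO. These RNA levels are from bulk cultures, in which fewer cells of a type and less RNA per cell cannot be told apart.

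*Rb1* encodes pRb (ENSMUSG00000022105, chr14:73183673-73325822, GRCm38, minus strand). It was at 10.9, 7.37 and 10.4 CPM in the 3 WT Prol libraries and at 68.5, 30.0 and 33.1 CPM in WT D2. In KO it was at 8.59, 7.59 and 8.74 CPM in Prol and at 38.8, 27.5 and 24.0 CPM at D2. Every D2 library lay above every Prol and D0 library of either genotype, and replicate 1 of WT D2 lay far above the other D2 libraries. *Rb1* rose 4.33-fold in WT (log2 2.11, SE 0.35, adjusted p = 0.000233) and 3.56-fold in KO (log2 1.83, adjusted p = 0.00077, limma with Benjamini-Hochberg adjustment).

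*Rbl1* encodes p107, which is most abundant in cycling cells (ENSMUSG00000027641, chr2:157145893-157204534, minus strand). Its 12 libraries before D2 lay between 56.2 and 69.5 CPM. WT D2 libraries were at 14.2, 22.8 and 23.8 CPM and KO D2 libraries at 12.0, 14.8 and 21 CPM. All D2 libraries were thus below all earlier ones, and the D2 libraries of the genotypes overlapped. *Rbl1* fell to 0.311 of its Prol level in WT (log2 -1.68, SE 0.21, adjusted p = 1.85e-05) and to 0.26 in KO (log2 -1.94, adjusted p = 5.14e-06, limma with Benjamini-Hochberg adjustment).

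*Rbl2* encodes p130, the pocket protein of resting cells (ENSMUSG00000031666, chr8:91070057-91123844, plus strand). WT libraries were at 27.7, 18.5 and 20.1 CPM in Prol, 36.7, 17 and 18.9 CPM at D0 and 49.9, 23.7 and 29.0 CPM at D2. KO libraries were at 26.6, 21.5 and 20.2 CPM in Prol, 31.9, 19.2 and 21 CPM at D0 and 48.9, 39.3 and 35.1 CPM at D2. Replicate 1 was the highest in every group, and D2 and Prol overlapped in WT but not in KO. The log2 differences between D2 and Prol were 0.58 in WT (95% interval -0.09 to 1.25, adjusted p = 0.189) and 0.85 in KO (0.18 to 1.52, adjusted p = 0.0513), so neither passed by limma with Benjamini-Hochberg adjustment. Same-numbered KO libraries deviated together, and a fit blocked on the replicate number called the KO difference (adjusted p = 0.000328, limma). It also passed with scaling by library totals (log2 0.98, adjusted p = 0.0161, limma). The block called the WT difference as well (adjusted p = 0.00613, limma). Same-numbered libraries of WT D2/Prol deviated together for replicates 1 and 2 (r = 0.404 and 0.269), not for replicate 3 (0.0393). With that block 10 of 10 members passed in KO D2/Prol and in WT D2/Prol. In all, 8580 genes passed in KO, beside 5706 without it, and 8431 in WT, beside 5424.

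The makeup of the pocket protein transcripts changed accordingly. Per kb, *Rbl1* made up 58.5% to 78.3% of the summed level of the 3 genes before D2, 11.6% to 31.9% in WT D2 and 13.4% to 28.8% in KO D2. *Rb1* went from 6.51% to 13.4% of the sum before D2 to 41.3% to 56.0% in WT D2 and 32.9% to 43.2% in KO D2. The sum itself was 13.0 to 17.3 CPM per kb before D2, 11.9 to 20.4 in WT D2 and 12.1 to 14.9 in KO D2, and these ranges overlapped. The ratio of *Rb1* to *Rbl1* per kb was at most 0.23 in any library before D2 and at least 1.14 in any library at D2. *Rbl2* held 26.3% to 32.4% of the sum in WT D2 and 38.3% to 43.4% in KO D2, ranges that did not overlap; this difference was seen after the shares were computed and was not tested.

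**Figure D2:**
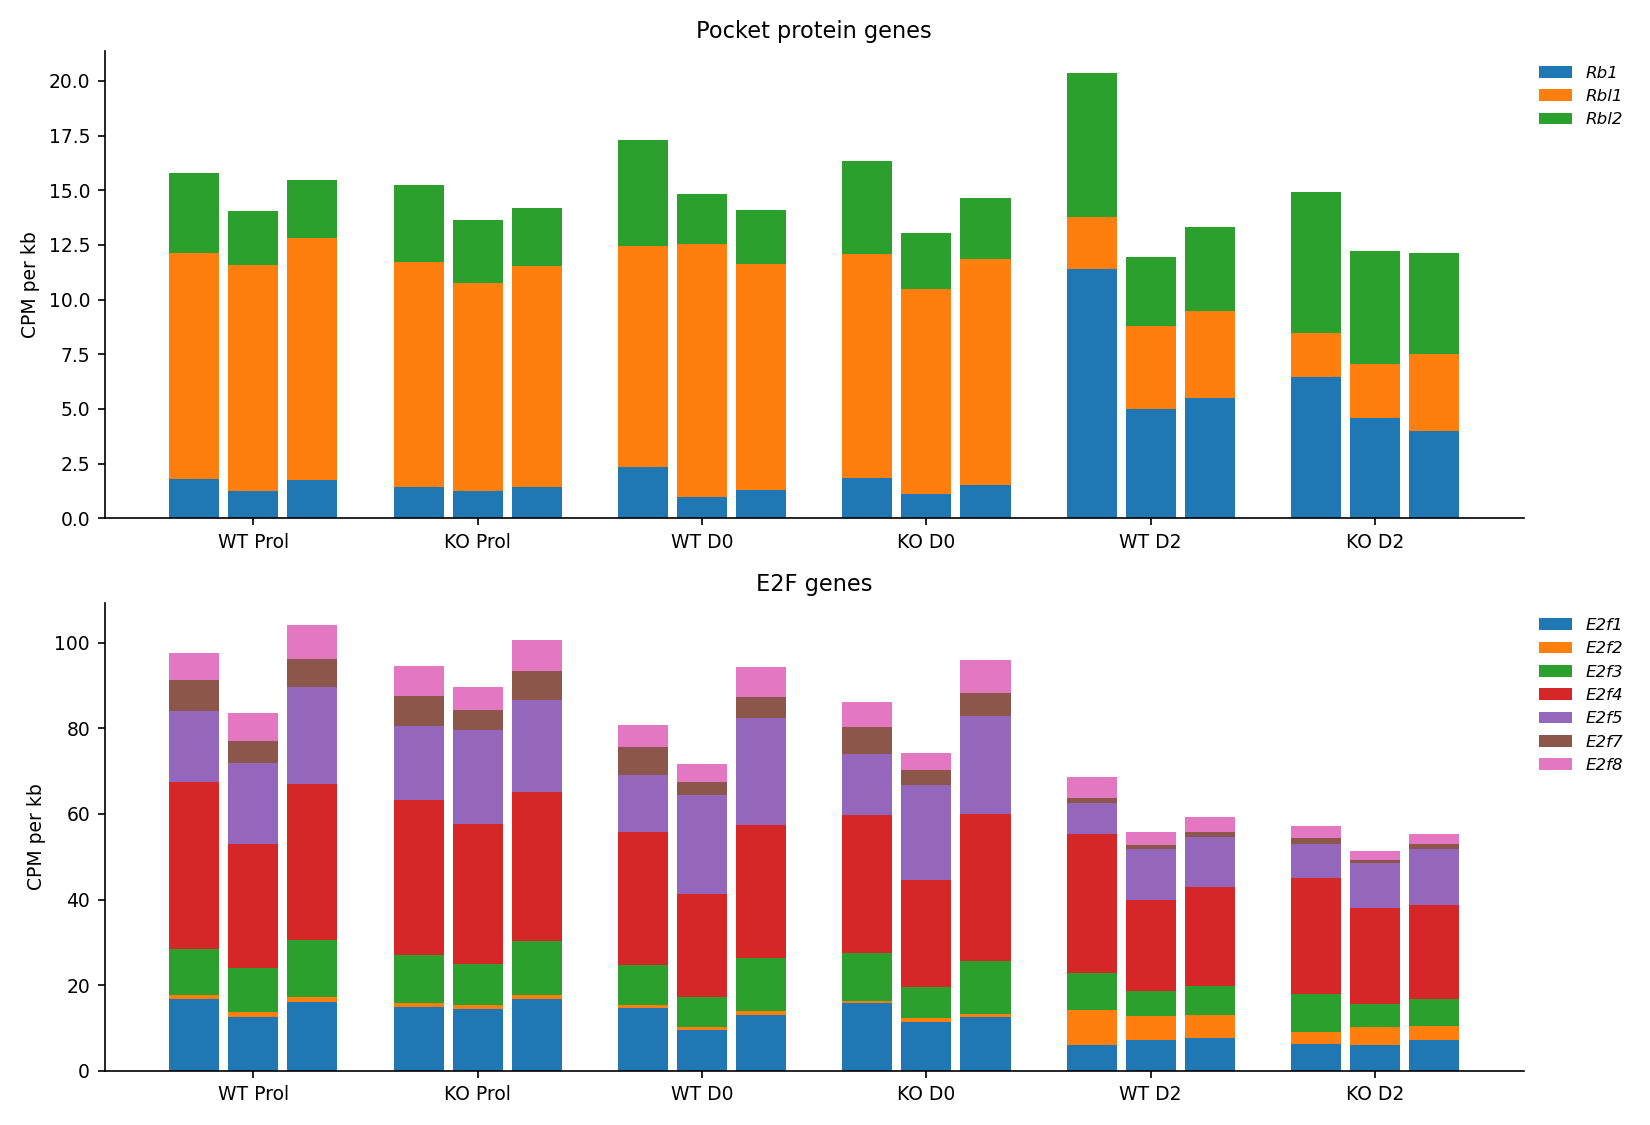
Stacked levels per kb of exon sequence (CPM per kb) in each library, replicates 1 to 3 from left to right within a group, for the 3 pocket protein genes (top) and the 7 E2F genes (bottom). *Rbl1* makes up most of the pocket protein sum before D2 and at most 31.9% of it at D2, and *E2f4* is the largest share of the E2F sum in all 6 groups by mean level.

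*E2f1* encodes the activator that is a main target of pRb (ENSMUSG00000027490, chr2:154559407-154569892, minus strand). It was at 53.0, 39.9 and 50.8 CPM in WT Prol and at 19.2, 22.3 and 23.8 CPM in WT D2. The KO libraries had 47.0, 45.6 and 53.1 CPM in Prol and at 19.6, 18.9 and 22.6 CPM at D2. The D2 libraries lay below all Prol libraries and overlapped between genotypes. *E2f1* fell to 0.456 of its Prol level in WT (log2 -1.13, SE 0.19, adjusted p = 0.000284) and to 0.419 in KO (log2 -1.26, adjusted p = 0.000116, limma with Benjamini-Hochberg adjustment).

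*E2f2*, another activator (ENSMUSG00000018983, chr4:136172394-136196057, plus strand), went the other way. Its 12 libraries before D2 lay between 3.27 and 5.25 CPM. At D2 the WT libraries were at 39.1, 27.4 and 26.2 CPM and the KO libraries at 13.9, 21 and 16.0 CPM. All D2 libraries were above all earlier ones, and all KO D2 libraries were below all WT D2 libraries. *E2f2* rose 6.49-fold in WT (log2 2.70, SE 0.23, adjusted p = 6.86e-07) and 3.88-fold in KO (log2 1.95, adjusted p = 1.08e-05, limma with Benjamini-Hochberg adjustment). Per kb, the ratio of *E2f2* to *E2f1* was 0.0426 to 0.0849 before D2, 0.711 to 1.32 in WT D2 and 0.456 to 0.72 in KO D2.

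*E2f3*, which encodes both an activating and a repressive isoform (ENSMUSG00000016477, chr13:29906575-29986063, minus strand), was at 59.6, 55.4 and 72.9 CPM in WT Prol and 47.6, 32.5 and 37.2 CPM in WT D2. KO libraries were at 61.3, 51.5 and 68.0 CPM in Prol and 48.4, 29.0 and 33.8 CPM at D2. Replicate 2 was the lowest in every group. The log2 difference of *E2f3* was -0.69 in WT (95% interval -1.24 to -0.14, adjusted p = 0.0542) over all 18 libraries, which did not pass, and -0.73 in KO (adjusted p = 0.0417, limma), which did. Leaving out 1 KO library ended the KO call in 4 of 6 cases (adjusted p = 0.0996 and 0.141 without Prol replicates 1 and 3, 0.168 and 0.111 without D2 replicates 2 and 3), and the WT difference passed without WT D2 replicate 1 (log2 -0.84, adjusted p = 0.0337) and with the 6 libraries of the comparison fitted alone (adjusted p = 0.0462). The difference of *E2f3* between genotypes is given with the KO comparison, and the isoforms are summed in these values.

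*E2f4*, the main E2F of resting cells (ENSMUSG00000014859, chr8:105297663-105305370, plus strand), was at 95.4, 71.0 and 89.0 CPM in WT Prol and 79.4, 52.1 and 56.8 CPM in WT D2, which overlapped. KO libraries were at 88.7, 80.2 and 85.4 CPM in Prol and 66.1, 54.7 and 53.8 CPM at D2, which did not. The log2 difference of *E2f4* was -0.45 in WT (95% interval -0.86 to -0.04, adjusted p = 0.0883) and -0.55 in KO (adjusted p = 0.0396, limma), so that *E2f4* fell in KO to 0.684 of its Prol level. The KO call ended without any 1 of KO Prol replicates 1, 2 or 3 (adjusted p = 0.11, 0.0648 and 0.0979) or of KO D2 replicates 2 or 3 (0.113 and 0.118), and the WT difference passed without WT D2 replicate 1 (log2 -0.64, adjusted p = 0.0204). *E2f4* nevertheless kept the highest mean level per kb in every group, and its share of the E2F sum was 33.2% to 39.8% before D2 and 38.1% to 47.2% at D2.

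*E2f5*, the other repressor of this pair (ENSMUSG00000027552, chr3:14578641-14606309, plus strand), was at 29.7, 34.1 and 40.7 CPM in WT Prol and 13.0, 21.3 and 20.9 CPM in WT D2. KO libraries were at 31.1, 39.2 and 38.3 CPM in Prol and 14.5, 18.9 and 23.4 CPM at D2. D2 and Prol did not overlap in either genotype, and replicate 1 was the lowest library in all 6 groups. *E2f5* fell to 0.52 of its Prol level in WT (log2 -0.94, SE 0.28, adjusted p = 0.0169) and to 0.515 in KO (log2 -0.96, adjusted p = 0.0149, limma). With scaling by library totals neither passed (adjusted p = 0.0788 in WT and 0.0617 in KO). The WT call ended without WT Prol replicate 3 (0.0772) or WT D2 replicate 1 (0.0725), and the KO call without KO Prol replicates 2 or 3 (0.0505 and 0.0527) or KO D2 replicate 1 (0.0625).

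*E2f7* encodes an atypical repressor that peaks in S phase (ENSMUSG00000020185, chr10:110745439-110787384, plus strand). It was at 65.6, 45.1 and 57.5 CPM in WT Prol and 9.8, 7.24 and 10.8 CPM in WT D2. In KO, levels were 62.8, 43.0 and 61.9 CPM in Prol and 12.5, 5.23 and 11.1 CPM at D2. All D2 libraries were below all earlier ones, and replicate 2 was the lowest in every group. *E2f7* had the largest fall of the members, to 0.165 of its Prol level in WT (log2 -2.60, SE 0.34, adjusted p = 3.24e-05) and to 0.163 in KO (log2 -2.61, adjusted p = 3.14e-05, limma with Benjamini-Hochberg adjustment).

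Its close relative *E2f8* (ENSMUSG00000046179, chr7:48866429-48881596, minus strand) was at 34, 36.1 and 43.2 CPM in WT Prol and 27.0, 17.3 and 18.7 CPM in WT D2. In KO it was at 38.3, 29.0 and 38.9 CPM in Prol and 14.8, 11.8 and 13.2 CPM at D2. All KO D2 libraries lay below all WT D2 libraries. *E2f8* fell to 0.548 of its Prol level in WT (log2 -0.87, SE 0.26, adjusted p = 0.0193) and to 0.377 in KO (log2 -1.41, adjusted p = 0.000676, limma). The WT call of *E2f8* ended without WT Prol replicate 3 (adjusted p = 0.083) or WT D2 replicates 2 or 3 (0.0785 and 0.069). Per kb, the ratio of *E2f7* to *E2f8* was 0.685 to 1.33 before D2, 0.22 to 0.347 in WT D2 and 0.269 to 0.509 in KO D2.

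**Figure D3:**
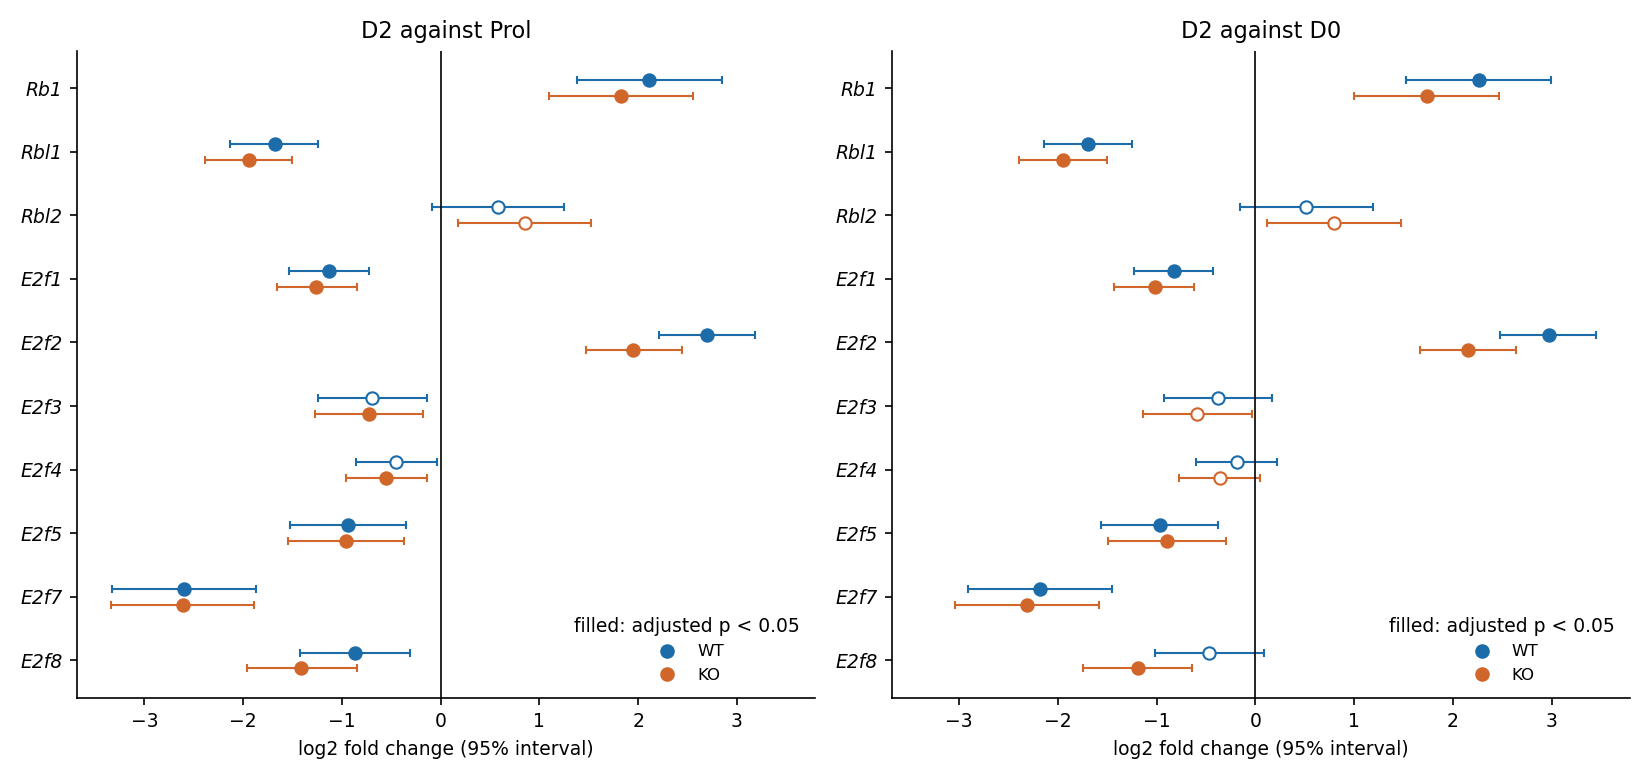
Log2 fold change of each member at D2 against Prol (left) and against D0 (right), with 95% intervals from limma, WT in blue and KO in orange. Filled points passed an adjusted p under 0.05. *E2f2* and *Rb1* lie highest and *E2f7* lowest in both genotypes and against both earlier states.

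The same question was put with confluent D0 cells as the starting point. These comparisons share the D2 libraries with those above. Against D0, 6 of 10 members passed in WT (26.0% of all genes) and 7 in KO (28.3% of all genes). *Rb1* (log2 2.26 in WT and 1.74 in KO) and *E2f2* (2.97 and 2.15) rose, and *Rbl1* (-1.70 and -1.95), *E2f1* (-0.83 and -1.02), *E2f5* (-0.97 and -0.90) and *E2f7* (-2.18 and -2.31) fell. *E2f8* fell in KO (log2 -1.19, adjusted p = 0.00287) and had a log2 difference of -0.47 in WT (95% interval -1.02 to 0.09, adjusted p = 0.214, limma). *E2f3* and *E2f4* did not pass in either genotype, and *Rbl2* had log2 differences of 0.51 in WT (adjusted p = 0.262) and 0.80 in KO (adjusted p = 0.0728). With the replicate block in KO, *Rbl2*, *E2f3* and *E2f4* passed as well (adjusted p = 0.000641, 0.00842 and 0.0273, limma), and 8126 genes in all passed beside 4997 without it. In WT the block added *Rbl2* (adjusted p = 0.0138, limma), and 7642 genes in all passed beside 4590 without it.

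The *E2f5* call against D0 depended on single libraries. It ended in WT without WT D0 replicates 2 or 3 (adjusted p = 0.0647 and 0.0917) or WT D2 replicate 1 (0.0747), and in KO without KO D0 replicates 2 or 3 (0.0719 and 0.105) or KO D2 replicates 1 or 2 (0.0948 and 0.0573, limma). It also ended with scaling by library totals (0.0667 in WT and 0.0822 in KO). Conversely, *Rbl2* passed without D0 replicate 1 of its genotype (adjusted p = 0.0452 in WT and 0.0388 in KO), and *E2f3* passed in KO without KO D0 replicate 2 (0.0314) or KO D2 replicate 1 (0.0416).

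Between Prol and D0 no member passed in either genotype, by limma with its main settings or in any alternative fit, and 0 of 10 had an unadjusted p under 0.05. Of all genes, 0.00566% passed in WT and 0% in KO. An unadjusted p under 0.05 was found for 384 of the 17672 genes in WT and for 198 in KO (limma). With so few genes under that threshold, 0 of 10 does not set the members apart from all genes. The log2 differences ran from -0.42 (*E2f7*) to 0.06 (*Rbl2*) in WT and from -0.31 (*E2f7*) to 0.10 (*Rb1*) in KO. The 95% intervals of the 10 members reached down to -1.15 (*E2f7*) and up to 0.74 (*Rbl2*) in WT, and from -1.03 (*E2f7*) to 0.83 (*Rb1*) in KO. The sign of the difference turned on leaving out 1 library for 4 members in WT and 6 in KO.

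How loss of LAP2α bears on the family was asked by comparing KO with WT in each state. No member passed an adjusted p under 0.05 in Prol (0.00566% of all genes), at D0 (0%) or at D2 (0%). Of all genes, 196 in Prol (1.11%), 260 at D0 (1.47%) and 346 at D2 (1.96%) had an unadjusted p under 0.05 (limma). In Prol the log2 differences of KO against WT ran from -0.19 (*Rb1*) to 0.06 (*E2f5*), and at D0 from -0.10 (*Rbl1*) to 0.11 (*E2f3*). No member had an unadjusted p under 0.05 in these states, where the smallest were 0.597 and 0.598 (limma). The KO and WT libraries of 1 member did not overlap in Prol (4.41% of all genes), *Rbl1* with 57.0 to 61.6 CPM in KO and 61.8 to 66.4 CPM in WT, and those of no member at D0. The 95% intervals reached from -0.92 (*Rb1*) to 0.73 (*Rbl2*) in Prol and from -0.68 (*Rb1*) to 0.83 (*E2f7*) at D0. The sign turned on leaving out 1 library for 7 members in Prol and 9 at D0.

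At D2, *E2f2* was at 17 ± 3.68 CPM in KO and 30.9 ± 7.14 CPM in WT, and *E2f8* at 13.3 ± 1.53 CPM in KO and 21 ± 5.22 CPM in WT (SD, n = 3). They were the 2 members whose KO and WT libraries did not overlap (6.17% of all genes), and the 2 with an unadjusted p under 0.05. The log2 difference was -0.86 for *E2f2* (SE 0.23, 95% interval -1.35 to -0.38, unadjusted p = 0.00169, adjusted p = 1, limma) and -0.64 for *E2f8* (SE 0.26, interval -1.2 to -0.08, unadjusted p = 0.0267, adjusted p = 1, limma). Neither met the criteria stated in the study's methods, which 0.0736% of all genes met. With the cut set at 1.5-fold in place of a log2 change of 1.5, both were called, as were 0.464% of all genes. Since the libraries did not overlap, KO had to be lower in every pair of same-numbered libraries, so the pairs add no further support. Their ratios to WT were 0.355 to 0.769 for *E2f2* and 0.55 to 0.707 for *E2f8*. With the replicate block the adjusted p was 0.414 for *E2f2* and 0.556 for *E2f8* (limma), and no fit called either after adjustment.

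WT D2 replicate 1 held the highest *E2f2* and *E2f8* values and also the highest sum of the myocyte markers (5050 CPM, beside 2690 and 2460 CPM in the other WT D2 libraries and 1470 to 1870 CPM in KO D2). Without it, the log2 difference was -0.68 for *E2f2* (unadjusted p = 0.0122) and -0.45 for *E2f8* (unadjusted p = 0.128, limma), which no longer met the looser rule with the 1.5-fold cut. The unadjusted p of *E2f8* also rose above 0.05 without KO D2 replicate 2 (0.0825) or 3 (0.0522, limma). All 3 KO D2 libraries had lower myocyte marker sums than all WT D2 libraries, and the part of the degree of differentiation in these differences was not tested.

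The other members gave log2 differences at D2 of 0.33 for *Rbl2* (95% interval -0.35 to 1.00), -0.47 for *Rb1* (-1.2 to 0.26) and -0.35 for *Rbl1* (-0.79 to 0.10). *E2f1*, *E2f3* and *E2f4* were each at -0.09, *E2f5* at 0.05 and *E2f7* at -0.02. *E2f3*, *E2f4*, *E2f5* and *E2f7* turned sign on leaving out 1 library. Whether the KO difference at D2 departed from that in Prol was tested as an interaction. No member passed (0% of all genes). *E2f2* was the 1 member with an unadjusted p under 0.05, beside 0.945% of all genes. It had the lowest value, -0.74 (SE 0.32, 95% interval -1.43 to -0.06, unadjusted p = 0.0354, adjusted p = 1, limma). It was called with the 1.5-fold cut, as were 0.232% of all genes, but not by the stated criteria, which 0.0905% of all genes met. The sign of the interaction turned on leaving out 1 library for 6 members, *Rb1*, *E2f1*, *E2f3*, *E2f4*, *E2f5* and *E2f7*. The unadjusted p of the *E2f2* interaction rose above 0.05 without WT Prol replicate 1 (0.102) or KO Prol replicate 2 (0.0766, limma). It also did so without WT D2 replicate 1 (0.1), KO D2 replicate 1 (0.0885) or KO D2 replicate 3 (0.0653, limma). *E2f8* was at -0.54 (unadjusted p = 0.164).

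**Figure D4:**
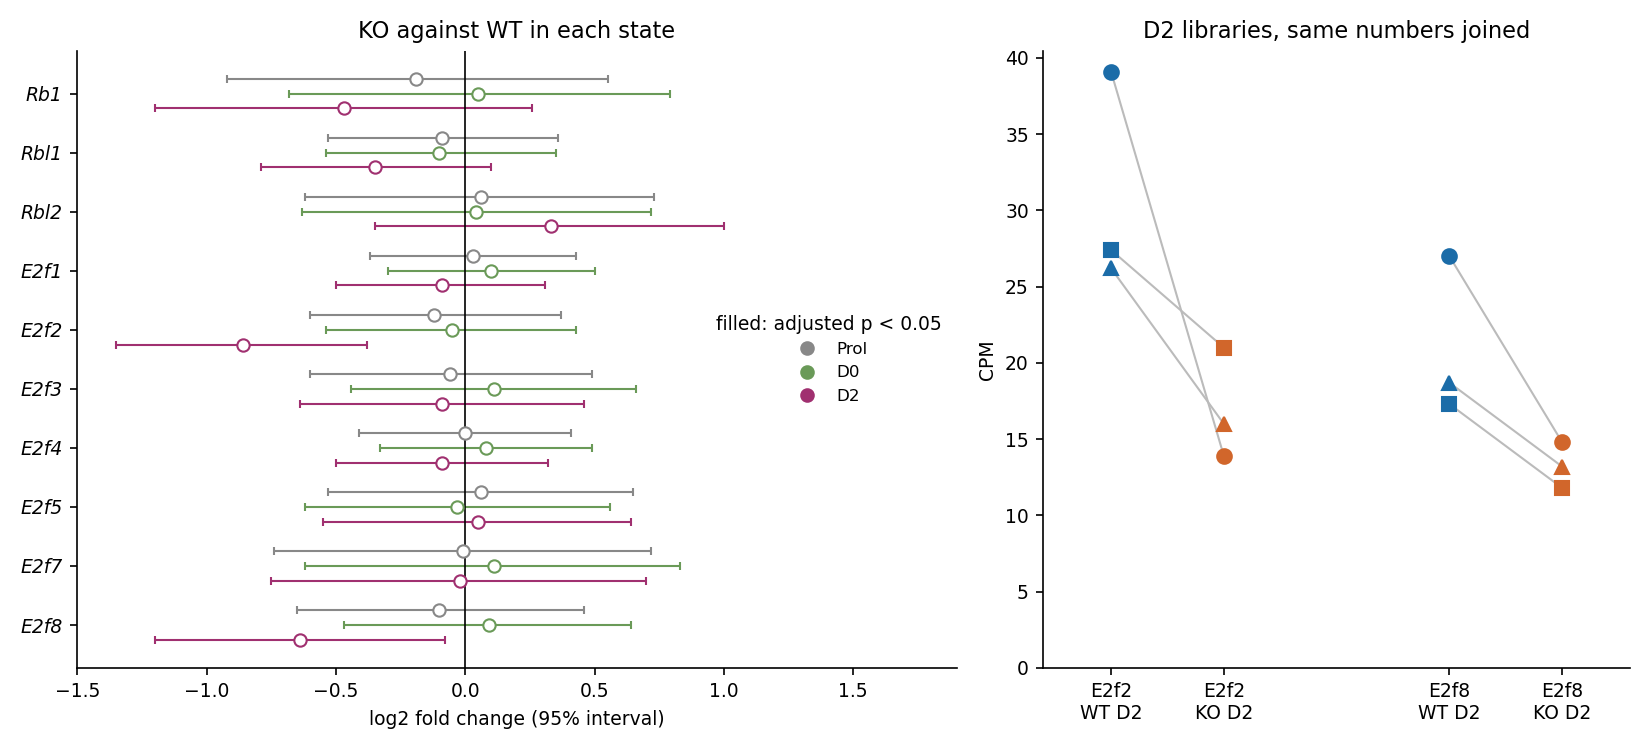
Left, log2 fold change of KO against WT for each member in Prol, D0 and D2, with 95% intervals from limma. Right, CPM of *E2f2* and *E2f8* in the 3 WT D2 and 3 KO D2 libraries, with circles, squares and triangles for replicates 1, 2 and 3 and same-numbered libraries joined. No point on the left is filled, since no adjusted p was under 0.05, and on the right each KO library lies below all WT libraries of its gene.

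The partners, regulators and targets of the family were described as lists at D2 against Prol, where the median log2 change of all genes was -0.01 in WT and 0.02 in KO. Of the E2F dimer partners and *E2f6*, *Tfdp1*, which encodes the common partner DP1, and *E2f6*, which represses without a pocket protein, fell in both genotypes. Of all genes, 14.1% fell in WT and 15.2% in KO. *Tfdp1* went from 253 to 341 CPM in WT Prol to 91.9 to 103 CPM in WT D2 (log2 -1.66), and *E2f6* from 30.4 to 36.3 CPM to 15.3 to 17.1 CPM (log2 -1.0). *Tfdp2* passed in KO alone (log2 -0.69, and -0.56 in WT, adjusted p = 0.0344 and 0.0852, limma), a difference between genotypes that was not tested as such. The MuvB core joins p130 or p107 and E2F4 in the repressive DREAM complex, and joins B-MYB and FOXM1 when it activates mitotic genes. Of 7 genes on that list, 4 fell in both genotypes (beside 14.1% and 15.2% of all genes in WT and KO) and none rose, with a median of -1.22 in WT and -1.29 in KO. *Mybl2*, which encodes B-MYB, had the largest fall, from 101 to 136 CPM in WT Prol to 4.12 to 9.92 CPM in WT D2 (log2 -4.06, and -4.31 in KO), followed by *Foxm1* (-2.24 and -2.38) and the core genes *Lin9* (-1.62 in WT) and *Lin54* (-1.22 and -1.29).

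Of 9 genes for the kinases that phosphorylate pocket proteins and their cyclins, 4 fell in WT and 5 in KO (beside 14.1% and 15.2% of all genes), with medians of -0.83 and -0.74. *Ccnd1* (cyclin D1) was at 215 to 366 CPM in WT Prol and 28.6 to 47.1 CPM in WT D2 (log2 -3.03), *Ccna2* (cyclin A2) fell by 2.81 and *Ccne2* (cyclin E2) by 2.52 on the log2 scale. *Ccnd3*, the D-type cyclin known to persist in differentiating muscle, did not pass against Prol (log2 0.59 in WT and 0.18 in KO). Against D0 it rose in WT (log2 0.92, adjusted p = 0.0331, limma) and did not pass in KO (log2 0.45, adjusted p = 0.296, limma). Of 7 inhibitors of these kinases, 5 rose in both genotypes (beside 16.6% of all genes in WT and 17.1% in KO) and none fell. *Cdkn1a*, which encodes p21 and is a p53 target that is also induced without p53 in muscle, was at 8.09 to 11.8 CPM in WT Prol, 278 to 662 CPM in WT D2 and 161 to 270 CPM in KO D2 (log2 5.36 in WT and 4.43 in KO against Prol). Its KO and WT libraries did not overlap at D2, with a log2 difference of -0.88 (unadjusted p = 0.0276, adjusted p = 1, limma). *Cdkn2b* (p15) rose by 1.2 in WT and 1.5 in KO on the log2 scale, *Cdkn2a* by 0.92 and 1.30, and *Cdkn1b* (p27) by 0.77 and 0.83. *Cdkn1c* (p57) also rose, but from levels of 0.0937 to 0.962 CPM in WT Prol to 1.74 to 5.37 CPM in WT D2.

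All 24 of 24 E2F target genes of DNA replication fell in both genotypes at D2 (beside 14.1% of all genes in WT and 15.2% in KO), with median log2 changes of -2.27 in WT and -2.24 in KO. *Rrm2*, a subunit of ribonucleotide reductase, was at 233 to 313 CPM in WT Prol and 26.8 to 38.5 CPM in WT D2 (log2 -3.06). *Cdc6*, which loads the replicative helicase, had 46.9 to 60.0 CPM and 4.12 to 8.91 CPM (log2 -3.02), and *Mcm5*, a helicase subunit, at 188 to 275 CPM and 25.3 to 37.4 CPM (log2 -2.83). The 13 mitotic genes of the DREAM and FOXM1 programme also all fell, with medians of -2.64 in WT and -2.93 in KO, among them the kinase gene *Aurkb* (log2 -2.96 in WT), *Birc5* (-2.91) and *Top2a* (-2.78). At D2, KO against WT gave a median of -0.12 for the replication genes, with 21 of 24 below 0, and -0.37 for the mitotic genes, with 13 of 13 below 0, beside -0.01 for all genes. No gene of either list passed the adjusted threshold in that comparison (limma). *Ube2c* alone had an unadjusted p under 0.05 there (log2 -0.50, unadjusted p = 0.0401, adjusted p = 1, limma). Genes of a list rise and fall together, so these counts are not independent of each other. The share of all genes below 0 was not counted, and the list medians were not computed without WT D2 replicate 1. Of 6 corepressors of pRb, the histone methyltransferase gene *Suv39h1* (log2 -1.04 in WT and -1.25 in KO) and the deacetylase gene *Hdac1* (-0.42 and -0.50) fell, and none rose. The 2 that fell stand beside 14.1% of all genes lower in WT and 15.2% in KO.

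**Figure D5:**
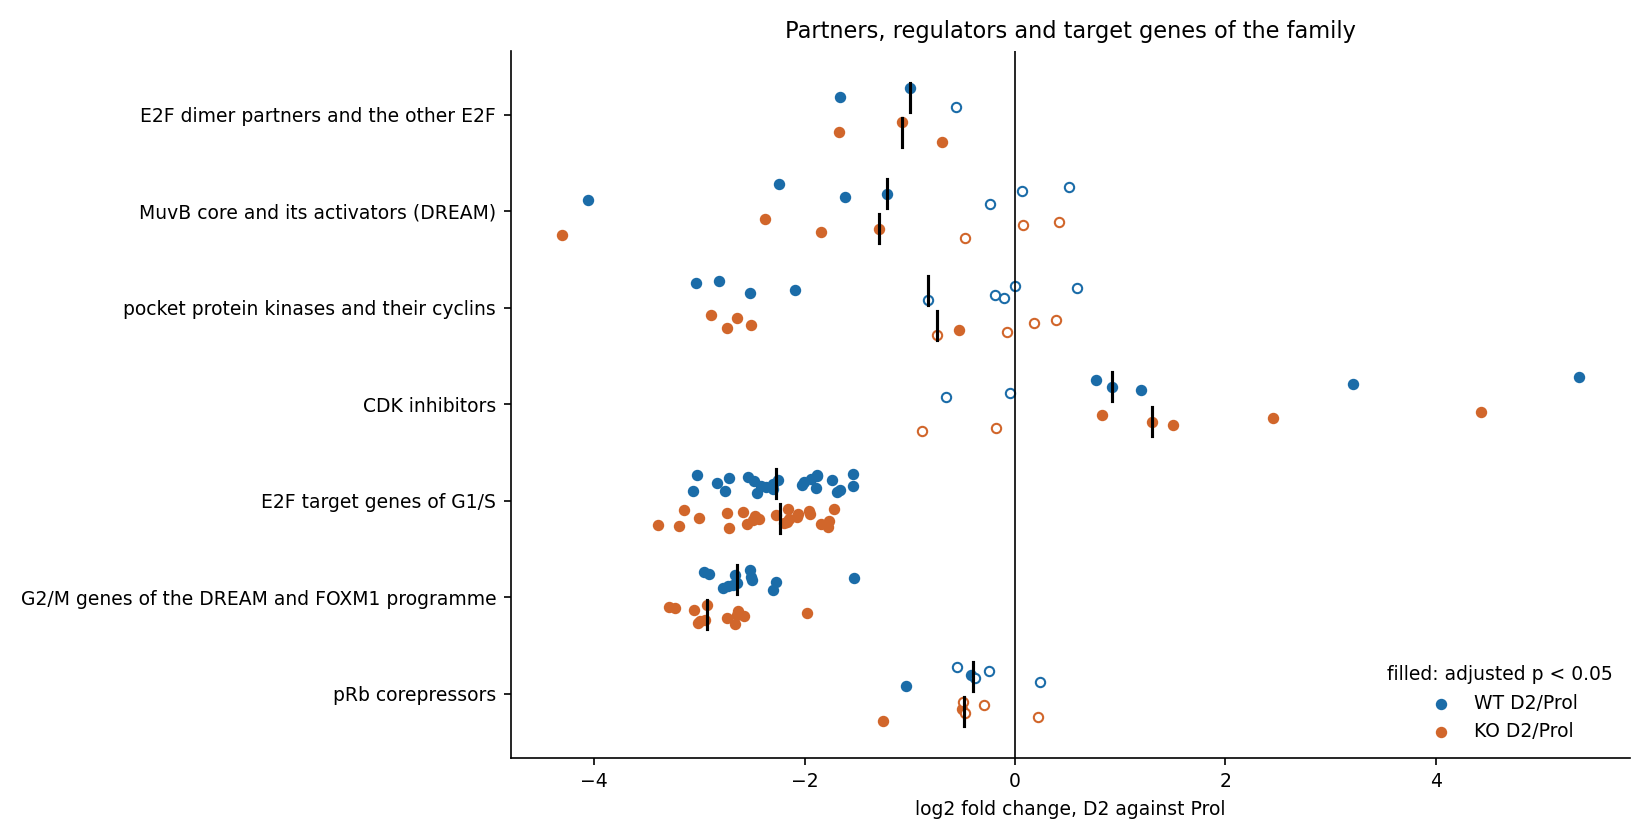
Log2 fold change at D2 against Prol of each gene in 7 lists of partners, regulators and targets, WT in blue and KO in orange, with black bars at the list medians. Filled points passed an adjusted p under 0.05 (limma). The 24 replication genes and 13 mitotic genes lie entirely below 0, and 5 of 7 CDK inhibitors lie above 0 with filled points.

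As a description of likeness across the 18 libraries, which share groups and replicate numbers, the 2 genes with the highest Pearson correlation of log2 CPM were found for each member. *Rb1* was most like *Sik1* and *Mef2a* (r = 0.983 each), and *Rbl2* most like *Slit3* (0.982) and *Wipi1* (0.979). *Rbl1* was most like the kinetochore gene *Ndc80* (0.994) and *Depdc1b* (0.993), *E2f7* most like *Clspn* (0.994) and *Chaf1a* (0.991), and *E2f1* most like the condensin gene *Ncapd3* (0.986) and *Kif4* (0.985). *E2f2* was most like *Shisa9* (0.99) and *Ankfn1* (0.983), and *E2f5* most like *Orc6* (0.987) and *Bbs12* (0.985). *E2f4* stood with *Tomm34* and *Ncoa5* (0.985 each), *E2f3* with *Mta2* and *Kif2a* (0.982 each), and *E2f8*, which had the weakest likeness of the 10, with *Cep76* and *Tamm41* (0.968 each). No member was among the 2 nearest genes of another.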

How the data were processed

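Polyadenylated RNA of 18 libraries (6 groups of 3) was sequenced with a strand-specific kit. The authors trimmed reads with cutadapt, aligned them with NextGenMap against GRCm38 transcripts, ran RSEM for expected counts, used tximport for gene sums, scaled them with edgeR (TMM) and applied limma-voom. The deposited values are CPM, written with a decimal comma. They are a gene's expected count plus 0.5 over the scaled library total, as was checked on the values, which also gave the expected counts and totals. Since only 36.0% to 49.1% of recovered counts under 20 were within 0.01 of a whole number, log2 CPM was tested with limma 3.58.1 in R 4.3.3 (lmFit, eBayes with a variance trend), with 1 factor of 6 groups over all 18 libraries. Each of the 17672 genes tested exceeded 5 expected counts in every library of some group, and p-values were adjusted by the Benjamini-Hochberg method over all of them. The 1.5-fold cut used as an alternative was first taken for the study's own, which its methods state as a log2 change of 1.5. With the 1.5-fold cut 4167 genes were called in WT D2/Prol and 82 in KO/WT D2. The stated cut called 1358 and 13. The numbers of genes the study reported for these comparisons were nearer to those of the 1.5-fold cut, and which cut it applied was not tested. The labels do not say whether replicates were separate cultures, so p-values measure the spread between these samples only, and they give no sequencing lane, so the lane term of the study's methods was not used.

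The members and lists were chosen with earlier results of these data known. From each list, the genes named passed in WT D2/Prol without overlap of the libraries, at most 3 in each direction by size of the change. *Tfdp2*, *Lin54*, *Ccnd3*, *Cdkn1b*, *Cdkn2a* and *Ube2c* were named after their values were seen. Levels per kb divide CPM by the union of a gene's exons (GENCODE M21, GRCm38). Promoter windows are from RefSeq. *Rb1* overlaps *Rcbtb2* and *Lpar6*, *Rbl2* overlaps *Aktip*, and *E2f5* overlaps 1810022K09Rik, all on the opposite strand. Cell type markers were summed by list. Whether same-numbered libraries deviate together was checked by correlating their deviations from the group means over genes, and this held for all 3 numbers (r above 0.1) in KO D2/Prol (0.198 to 0.364), KO D2/D0 (0.151 to 0.443) and the KO/WT comparisons, but not in WT D2/Prol or WT D2/D0, where replicate 3 gave 0.0393 and 0.01. In simulated data for WT D2/Prol over 17672 genes, the fit called 84 of 100 genes changed 2-fold, 100 of 100 changed 4-fold and 9 unchanged genes. The simulation gave every gene the same dispersion, changed only well-counted genes and held no shared deviation of same-numbered libraries. Its rates therefore do not measure what the fit finds in these data. Plots used matplotlib 3.10.9 (Python 3.11.15).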

Additional observations from a re-analysis of the deposited data

How the results depend on the processing

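Of 60 member differences, 60 stayed on their side of the threshold with median-of-ratios scaling, without the filter, with a pseudocount of 1 CPM and with voom weights. With library totals, which moved the median of all genes by 0.162 in WT D2/Prol and 0.132 in KO D2/Prol, 54 stayed, 4 calls were lost and 2 gained. With only the groups compared in the fit, 55 stayed, *E2f3* in WT D2/Prol (adjusted p = 0.0462) and *Rbl2* in KO D2/Prol (0.0139) gained a call, and *E2f1* in WT D2/D0 (0.0742) and *E2f5* in WT D2/D0 (0.0986) and KO D2/D0 (0.069, limma) lost it. Counts of members called in the comparisons of D2 with Prol and D0 stayed within 1.5 times in every alternative but 1: by the criteria stated in the study's methods, 4 members were called in WT D2/Prol, KO D2/Prol and KO D2/D0. With the 1.5-fold cut, 2 members were called in KO/WT D2 and 1 in the interaction. The stated criteria and the counts over all genes were added after the data were seen. With the replicate block, 8431 genes were called in WT D2/Prol, 8580 in KO D2/Prol, 7642 in WT D2/D0, 8126 in KO D2/D0 and 3 in WT D0/Prol, and with a random replicate block and voom weights 8164 in WT D2/Prol, 7350 in WT D2/D0, 7974 in KO D2/D0, and 0 in WT D0/Prol and KO/WT Prol. Same-numbered libraries deviated together for replicates 1 and 2 in WT D2/Prol (r = 0.404 and 0.269) and WT D2/D0 (0.454 and 0.47). They did not for replicate 3 (0.0393 and 0.01). In these 2 comparisons the block called 10 and 7 members. It added *Rbl2* (adjusted p = 0.00613), *E2f3* (0.00273) and *E2f4* (0.0067) to the former (limma) and *Rbl2* (0.0138) to the latter. The block changed no other call of a member than those given here and in the report. With only the groups compared, 2332 genes were called in WT D2/D0, 3185 in KO D2/D0, 0 in WT D0/Prol and 1 in KO/WT D0. Voom weights and the pseudocount each gave 0 in WT D0/Prol and KO/WT Prol, and the pseudocount gave 31 in KO/WT D2. Leaving out 1 library gave 0 to 1 genes in KO D0/Prol and in KO/WT Prol, D0 and D2, 1 to 2 in WT D0/Prol, 3022 to 5086 in WT D2/D0 and 3271 to 5124 in KO D2/D0. It turned the sign of 4 members in WT D0/Prol, 6 in KO D0/Prol, 7 in KO/WT Prol, 9 in KO/WT D0, 4 in KO/WT D2 and 6 in the interaction, among them, of the values given in the report, *E2f3* in KO/WT D0 (log2 -0.101 to 0.342) and D2 (-0.3 to 0.068), *E2f4* (-0.214 to 0.091), *E2f5* (-0.185 to 0.224) and *E2f7* (-0.259 to 0.368) in KO/WT D2, *E2f5* in KO/WT Prol (-0.05 to 0.177), *Rb1* in KO D0/Prol (-0.076 to 0.293) and *Rbl2* in WT D0/Prol (-0.283 to 0.274). With the longest transcript in place of the exon union, 34 of 60 group levels per kb moved by more than 1 SD. The orders of the members changed as well. *Rbl2* went from rank 5 to rank 3 in KO D2 (8.35 CPM per kb), and *Rbl1* from rank 5 to rank 4 in WT Prol. The cause of these changes was not tested.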
